A study of Mus musculus with 2 samples.

Results

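The 10 genes described here are 3 cytokines of the blood stem cell niche (Kitl, Thpo and Cxcl12), 2 receptor kinases of stem and progenitor cells (Kit and Flt3), the progenitor surface protein Cd34, and 4 transcription factors of blood stem cells (Hlf, Meis1, Runx1 and Mecom). They were chosen by name and not by a rule on their values, though with earlier results of these data known. All 10 were found among the 43346 Ensembl genes measured. The study profiled RNA of the liver of newborn mice, and its labels imply a description of this tissue and no contrast between conditions. There was 1 group of 2 livers, from pup 1 and pup 2, B6NCrl mice aged 0 days after birth and born to the same dam. B6NCrl is an inbred strain of the C57BL/6N line. The labels describe separate pups but give both libraries the same donor identifier, and what that identifier refers to is not stated. No allele or treatment is labelled, and the sex of the pups was not collected. Each library was made from the RNA of 1 whole liver, so hepatocytes, vessels, stroma and blood-forming cells were measured together. In such bulk samples, fewer cells of a type and less RNA per cell cannot be told apart. With 1 group and 1 library a pup, the SD over the 2 livers is the only replicate error, no test between groups exists, and no p-value is given.

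The liver is the main site of blood formation in the mouse fetus, and stem cells leave it for the bone marrow around birth. KIT on stem and progenitor cells binds KIT ligand, made by endothelial and stromal cells. Thrombopoietin is made by hepatocytes, and CXCR4 binds CXCL12, a chemokine of endothelial and stromal cells that holds stem cells in place. HLF, MEIS1, RUNX1 and MECOM are DNA-binding proteins needed for the formation or upkeep of blood stem cells, and each is also used in other tissues.

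The libraries held 42124582 expected counts in pup 1 and 41443673 in pup 2. A level is given as TPM, which divides the reads of a gene by its length and scales all genes of a library to the same total, so that genes can be compared with each other. A gene was called detected where both livers reached 1 TPM, which 12332 of the 43346 Ensembl genes (28.5%) did. The median over the detected genes was 9.45 TPM. The liver of pup 2 also held RNA of striated muscle and pancreas: Acta1, a muscle actin, was measured at 16.3 TPM in pup 1 and at 310 in pup 2. The summed TPM of 4 muscle genes was 28.3 against 572, and that of 4 pancreatic genes 1.96 against 87.4, genes picked with earlier results of these data known. The part of this RNA in the values below was not tested.

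Several of these genes encode proteins that differ by a short stretch of spliced sequence, and the transcripts that carry it are compared further on. The sequences are those of GENCODE M21 transcripts on GRCm38, written 5′ to 3′ in the sense of the gene. For Kitl and Kit, the capitals mark coding bases that the transcript has and its main partner lacks, with 30 bases on each side. The 84 bases of Kitl-202 form an exon at chr10:100080857-100080940 on the plus strand. That exon encodes the main cleavage site from which soluble KIT ligand is shed, while the form without it, Kitl-201, stays mainly on the cell surface. The 12 bases of Kit-201 lie at chr5:75639147-75639158 on the plus strand and add residues next to the membrane on the outer side of the receptor. They are absent from Kit-204.
Kitl-202: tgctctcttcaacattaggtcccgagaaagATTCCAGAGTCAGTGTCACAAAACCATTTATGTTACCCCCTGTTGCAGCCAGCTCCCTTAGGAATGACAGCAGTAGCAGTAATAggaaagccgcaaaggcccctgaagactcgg
Kit-201: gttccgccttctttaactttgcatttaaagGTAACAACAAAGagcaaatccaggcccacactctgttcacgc

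For Cxcl12 on chromosome 6, plus strand, the capitals mark the last coding bases before the stop codon, where the 3 coding forms part after a shared stretch. The lengths of their coding sequences are 267 bases in Cxcl12-202, 279 in Cxcl12-203 and 357 in Cxcl12-201, which are the forms called alpha, beta and gamma. The capitals lie at chr6:117173579-117173579 for alpha, at chr6:117178583-117178595 for beta and at chr6:117176086-117176176 for gamma. The gamma tail is rich in codons for basic residues and is known to bind heparan sulfate.
Cxcl12-202: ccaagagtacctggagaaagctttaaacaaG
Cxcl12-203: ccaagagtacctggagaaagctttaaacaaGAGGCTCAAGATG
Cxcl12-201: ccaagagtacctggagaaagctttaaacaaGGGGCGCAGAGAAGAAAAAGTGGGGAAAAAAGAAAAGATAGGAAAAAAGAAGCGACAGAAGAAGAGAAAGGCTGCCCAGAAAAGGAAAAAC

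Of the 10 genes, 9 were detected, where 28.5% of all Ensembl genes were. They spanned from 113 TPM for Cxcl12 to 0.76 TPM for Mecom, with the other 8 between 1.24 and 7.91 TPM. The order of mean levels, from high to low, was Cxcl12, Hlf, Thpo, Meis1, Cd34, Kit, Runx1, Kitl, Flt3 and Mecom. In 2 places of that order the neighbours did not differ beyond their spread: Hlf and Thpo differed by 0.825 TPM with SDs that sum to 1.01, and Runx1 and Kitl by 0.44 TPM with SDs that sum to 2.16. Only for Runx1 and Kitl did the values of the livers overlap. These comparisons use TPM and not the credible intervals within a liver, which overlapped for Flt3 and Mecom, among others.

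**Figure D1:**
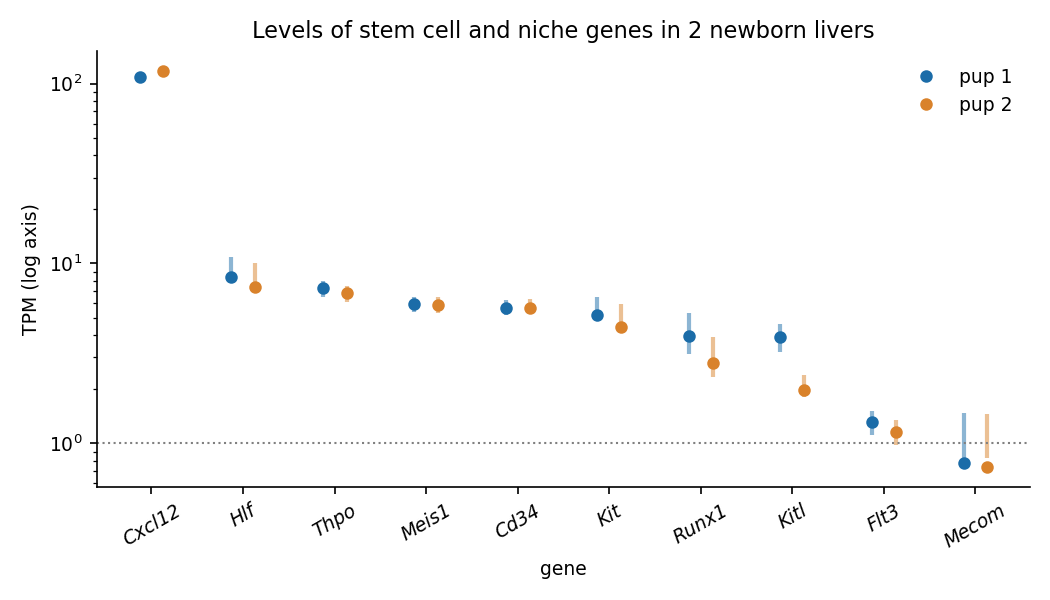
Level of each of the 10 genes in TPM (log axis) in the liver of pup 1 and of pup 2, with the authors' credible interval of each library as a bar and the genes in order of their mean. Cxcl12 stands above 100 TPM in both livers, Mecom lies below 1 TPM in both, and the intervals of the livers part for Kitl and Cxcl12.

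Cxcl12 (ENSMUSG00000061353.7, chr6:117168535-117181367, plus strand) had the highest level of the 10, with 108.9 TPM in pup 1 and 117.6 in pup 2, or 113 ± 6.15 TPM (SD, n = 2). The values rested on 8487 and 9130 expected counts. Its mean level lay above that of 92.2% of the detected genes and was 14.3 times that of Hlf, the next of the 10. Cxcl12 was thus the only one of the 10 among the abundant RNAs of the tissue, and pup 2 was the higher liver, with credible intervals of 104.8 to 109.6 and 113.3 to 118.2 TPM that did not overlap.

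Thpo (ENSMUSG00000022847.10, chr16:20724454-20734511, minus strand) encodes thrombopoietin, the cytokine of megakaryocytes and of stem cell upkeep. It was measured at 7.33 TPM in pup 1 and at 6.84 in pup 2, from 388 and 365 counts, or 7.09 ± 0.346 TPM (SD, n = 2). The livers were alike within the authors' intervals of 6.53 to 7.96 and 6.07 to 7.46 TPM, and 42.3% of the detected genes lay below this level.

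Kitl (ENSMUSG00000019966.13, chr10:100015630-100100416, plus strand) was the cytokine with the lowest level and the least even value of the 10 genes. Its level was 3.88 TPM in pup 1 and 1.99 TPM in pup 2, or 2.94 ± 1.34 TPM (SD, n = 2), and the credible intervals of 3.23 to 4.58 and 1.80 to 2.41 TPM did not overlap. Pup 1 was the higher liver, 1.95-fold on TPM. On CPM, counts scaled by the library total without use of length, it was 1.29-fold: 485 counts gave 11.5 CPM in pup 1 and 369 gave 8.90 CPM in pup 2. The deposited effective length that links both scales was 3510 bases in pup 1 and 5179 bases in pup 2; it is an average over the transcripts assigned, which are described with the transcript forms.

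Kit (ENSMUSG00000005672.8, chr5:75574916-75656722, plus strand), the receptor of KIT ligand, was measured at 5.18 TPM in pup 1 and at 4.46 in pup 2, from 921 and 732 counts, or 4.82 ± 0.509 TPM (SD, n = 2). Pup 1 was higher, though the credible intervals of 5.05 to 6.48 and 4.09 to 5.92 TPM overlapped. The ratio of CPM, pup 2 over pup 1, was 0.808 with an exact 95% interval of 0.732 to 0.891, which covers counting error only. KIT is also carried by mast cells and melanocytes. Of 12 mast cell and basophil markers 5 were detected, with a sum of 42.2 TPM in pup 1 and 33.8 TPM in pup 2. That sum was led by the basophil proteases Mcpt8, at 16.4 and 11.3 TPM, and Prss34, at 13.5 and 9.72 TPM, and by Hdc, the enzyme that makes histamine, at 5.28 and 3.89 TPM. These 3 genes were lower in pup 2, while Gata2 of the same list was at 1.85 and 2.23 TPM. Of the 6 genes of the list with a mean of 1 TPM or more, 4 were lower in pup 2 and 2 higher. Over all 12711 genes at that level, 8009 were lower. Of the genes of mast cells, Cpa3, a carboxypeptidase, had 2.58 and 2.26 TPM, while the chymase Cma1 had 0.52 and 1.49 TPM and the tryptase Tpsb2 0.66 and 1.31 TPM, both higher in pup 2. Tpsab1 had 0 and 3 counts and Mcpt1 had 1 count in each liver. Of 6 melanocyte markers none reached 1 TPM in both livers, and their sum was 2.07 TPM in pup 1 and 2.45 TPM in pup 2. Dct had 64 and 117 counts, Mitf 64 and 57, Pmel 38 and 29 and Tyr 0 and 1, and Tyrp1 and Mlana had 0 in both livers. The part of these cells in the Kit level was not tested.

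Flt3 (ENSMUSG00000042817.13, chr5:147330741-147400489, minus strand) encodes the receptor kinase of multipotent and lymphoid progenitors. It was close to the threshold of detection, with 1.31 TPM in pup 1 and 1.16 in pup 2, from 166 and 149 counts, or 1.24 ± 0.106 TPM (SD, n = 2). The livers overlapped in their credible intervals, 1.11 to 1.51 and 0.975 to 1.34 TPM. Only 2.09% of the detected genes lay below it.

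Cd34 (ENSMUSG00000016494.5, chr1:194938819-194961279, plus strand) encodes a sialomucin of progenitors and of endothelium. On TPM it was the most even of the 10, with 5.64 TPM in pup 1 and 5.65 in pup 2, from 478 and 480 counts, or 5.65 ± 0.00707 TPM (SD, n = 2). Endothelial markers summed over 10 genes to 202 TPM in pup 1 and 196 TPM in pup 2, with all 10 detected, 9 lower in pup 2 and Lyve1 higher. Since both sources express Cd34, its level is a sum over them.

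Hlf (ENSMUSG00000003949.12, chr11:90336536-90390895, minus strand) belongs to the PAR bZIP factors. HLF itself marks stem cells and also acts in the hepatocyte. It had the highest level of the 4 transcription factors, 8.38 TPM in pup 1 and 7.44 TPM in pup 2, or 7.91 ± 0.665 TPM (SD, n = 2). The counts of 1017 and 1003 gave a CPM ratio of 1.00, with an exact 95% interval of 0.918 to 1.09. Hlf was therefore lower in pup 2 on TPM and level on CPM.

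Meis1 (ENSMUSG00000020160.14, chr11:18879817-19018985, minus strand) is a homeodomain partner of HOX proteins. It was measured at 5.93 TPM in pup 1 and at 5.90 in pup 2, from 508 and 529 counts, or 5.92 ± 0.0212 TPM (SD, n = 2), so the livers were alike. The unnamed locus Gm37818 lies within Meis1 on the same strand and had 34.6 and 35.7 counts. Whether strand was used in the counting is not given in the sources used here.

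Runx1 (ENSMUSG00000022952.12, chr16:92601466-92826149, minus strand) is the factor on which the first stem cells of the embryo depend. Its level was 3.96 TPM in pup 1 and 2.79 TPM in pup 2, from 443 and 367 counts, or 3.38 ± 0.827 TPM (SD, n = 2). Pup 1 was higher, but the credible intervals of 3.13 to 5.28 and 2.33 to 3.92 TPM overlapped. On CPM the ratio of pup 2 to pup 1 was 0.842, with an exact 95% interval of 0.731 to 0.969.

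Mecom (ENSMUSG00000027684.12, chr3:29951296-30548008, minus strand) encodes EVI1 and MDS1-EVI1, zinc finger proteins of long-term stem cells and of some endothelium. It was the one gene of the 10 that was not detected by the threshold, with 0.78 TPM in pup 1 and 0.74 in pup 2. Reads were present all the same, 96 counts in pup 1 and 103 in pup 2. The authors' posterior mean, their other estimate of the same TPM, was 1.11 and 1.13, just past the threshold. Flt3, the next gene up and on the other side of the threshold, stood 1.63 times higher on TPM. By posterior mean Flt3 was closer, at 1.31 and 1.16. The credible intervals of Mecom, 0.788 to 1.48 and 0.830 to 1.46 TPM, lay above its TPM and overlapped those of Flt3 in each liver. The order of Flt3 and Mecom thus lay within these intervals.

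Between the livers, none of the 9 genes at a mean of 1 TPM or more was at least 2-fold apart on log2(TPM + 1) with credible intervals that did not overlap. This was so for 80 of 12711 genes, or 0.629%. At 1.5-fold, Kitl was the only one of the 9, against 187 genes or 1.47%. Without a rule of size, the intervals parted for Kitl and Cxcl12, 2 of 9, against 20.1% of all genes. These are rules of size between 2 animals and have no replicate check. A fold on log2(TPM + 1) understates the change of low genes.

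Of the 9 genes, Cxcl12 and Cd34 were higher in pup 2 and 7 were lower, with a median log2 ratio of -0.097. Over all 12711 genes, 4658 were higher and 8009 lower, with a median of -0.05, so the direction of the set was that of the whole table. Scaling by the spike-in RNAs, which had 163 counts in pup 1 and 190 in pup 2, moved the median of all genes to -0.27. That scaling applies 1 factor to every gene, and with so few spike-in counts the factor is itself imprecise. On that scale all 10 genes were lower in pup 2. Relative to the median of all genes on it, Cxcl12, Cd34, Mecom, Meis1 and Flt3 were higher and the other 5 lower. Kit, Kitl, Runx1 and Thpo were lower in pup 2 on every scale computed, and Kitl had the largest log2 ratio on each, from -0.30 on TMM-scaled CPM to -0.93 on log2(TPM + 0.1). The SD of the log2 ratio over 6706 genes with a mean of 1 to 10 TPM was 0.36. On log2(TPM + 1), Kitl at -0.71 and Runx1 at -0.39 were the members beyond it. On CPM they were at -0.34 and -0.22, both within it, and without transcripts under 1000 nt Runx1 was at -0.12. The share of all genes beyond 1 SD was not counted, so passing it does not set these members apart.

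**Figure D2:**
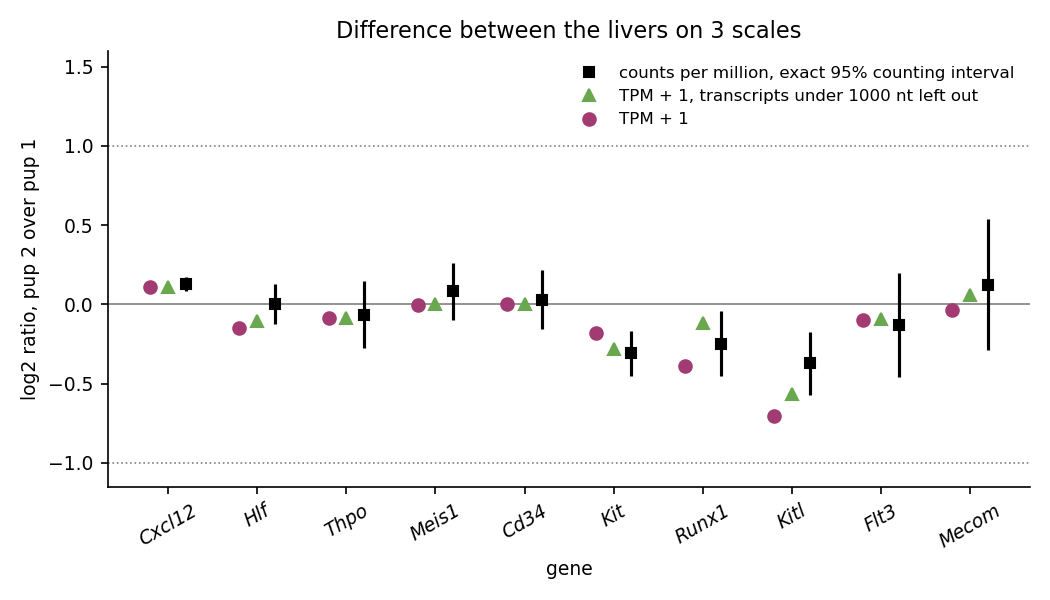
Log2 ratio of pup 2 over pup 1 for each of the 10 genes on TPM + 1 (circles), on TPM + 1 without transcripts under 1000 nt (triangles) and on CPM with its exact 95% counting interval (squares with bars). Kitl lies at -0.71 on TPM + 1 and -0.57 without short transcripts, Runx1 at -0.39 and -0.12, and no symbol reaches the dotted lines at a log2 ratio of 1 or -1.

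The transcript tables give, for each gene, the percent of its TPM assigned to each annotated transcript (IsoPct). The 10 genes had 62 transcripts. In 8 of the 10, the same transcript led in both livers, Hlf and Runx1 being the exceptions. A short transcript with few reads can take a large share of TPM, since reads are divided by length, so counts or shares of counts are given beside the shares of TPM.

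For Kitl, the long transcript Kitl-202, with the exon of the cleavage site, led in both livers with 55.1% of TPM in pup 1 and 91.6% in pup 2. It held 422 and 362 counts, and its own level was 2.14 and 1.82 TPM. Kitl-201, the form without the exon, took 33.3% and 8.38% of TPM, from 53.4 and 6.93 counts, at 1.29 and 0.17 TPM. The rest was Kitl-203, a transcript of 675 nt, with 11.6% from 9.23 counts in pup 1 and 0 counts in pup 2. By counts, Kitl-202 held 87.1% and 98.1%, so the form with the exon led on both scales. Most of the difference in Kitl TPM between the pups lay in Kitl-201 and Kitl-203, the forms with few counts. Kitl-202 and Kitl-201 differ also by 286 bases at the 5′ end and by 4018 bases at the 3′ end, so the shares cannot be assigned to the exon alone.

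Kit was read from both of its coding forms, more evenly in pup 1 than in pup 2. Kit-204, without the 12 bases, had 51.6% of TPM in pup 1 and 53.6% in pup 2, from 489 and 440 counts. Kit-201, with them, had 45.5% and 35.02%, from 429 and 286 counts. By counts the shares were 53.1% and 60.2% for Kit-204 and 46.6% and 39.1% for Kit-201. Kit-204 also has 39 bases at the 5′ end that Kit-201 lacks, so the shares cannot be assigned to the 12 bases alone. The credible intervals of the forms overlapped within each liver: in pup 1 they were 1.56 to 3.75 TPM for Kit-204 and 1.14 to 3.34 TPM for Kit-201, and in pup 2 they were 1.61 to 3.48 and 0.473 to 2.30 TPM. The order of the forms was the same in both livers but lay within these intervals. Kit-202, a fragment of 392 nt with a retained intron, took 11.4% in pup 2 from 5.32 counts and 0 counts in pup 1.

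The forms of Cxcl12 kept their proportions between the pups. Alpha (Cxcl12-202) had 68.0% of TPM in pup 1 and 69.5% in pup 2, or 68.8 ± 1.06% (SD, n = 2), at 74.1 and 81.8 TPM. Beta (Cxcl12-203) had 27.4% and 26.4%, or 26.9 ± 0.721% (SD, n = 2), at 29.9 and 31.1 TPM. Gamma (Cxcl12-201), the form with the basic tail, had 0.79% and 0.61%, at 0.86 and 0.71 TPM. By counts the shares were 55.3% and 57.1% for alpha, 38.0% and 36.9% for beta and 1.99% and 1.55% for gamma. The order alpha, beta, gamma held in both livers on both scales.

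Cd34 was read mainly as Cd34-201, the form with the full cytoplasmic tail and 1146 coding bases, at 74.3% of TPM in pup 1 and 79.5% in pup 2. Cd34-202, with 975 coding bases and a shorter tail, had 24.9% and 19.1%. By counts the shares were 73.4% and 78.9% for Cd34-201 and 25.7% and 19.8% for Cd34-202. The credible intervals of these forms did not overlap in either liver. Flt3 was read from 1 coding transcript, Flt3-201, at 100% and 98.6%, from 166 and 146 counts.

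On TPM, Meis1 in both livers and Hlf in pup 1 led with a transcript that the annotation lists as non-coding. Hlf-203, a processed transcript of 2476 nt, had 49.4% of Hlf TPM in pup 1 and 42.4% in pup 2. The coding Hlf-201, of 5642 nt, had 36.9% and 46.0%, and by counts it led in both livers with 59.9% and 67.7%. For Meis1, the processed transcript Meis1-203 had 59.9% and 53.5% of TPM, and all coding transcripts together had 32.2% and 41.7%. By counts, Meis1-203 held 47.5% and 40.8% and the coding transcripts 44.1% and 54.4%, so in pup 2 the coding forms together held more. Between the coding forms of Meis1 the livers went opposite ways: Meis1-209 had 21.5% and 14.6%, and Meis1-201 9.98% and 26.0%. The credible intervals of Meis1-201, 0.00326 to 1.28 and 0.457 to 2.25 TPM, overlapped.

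**Figure D3:**
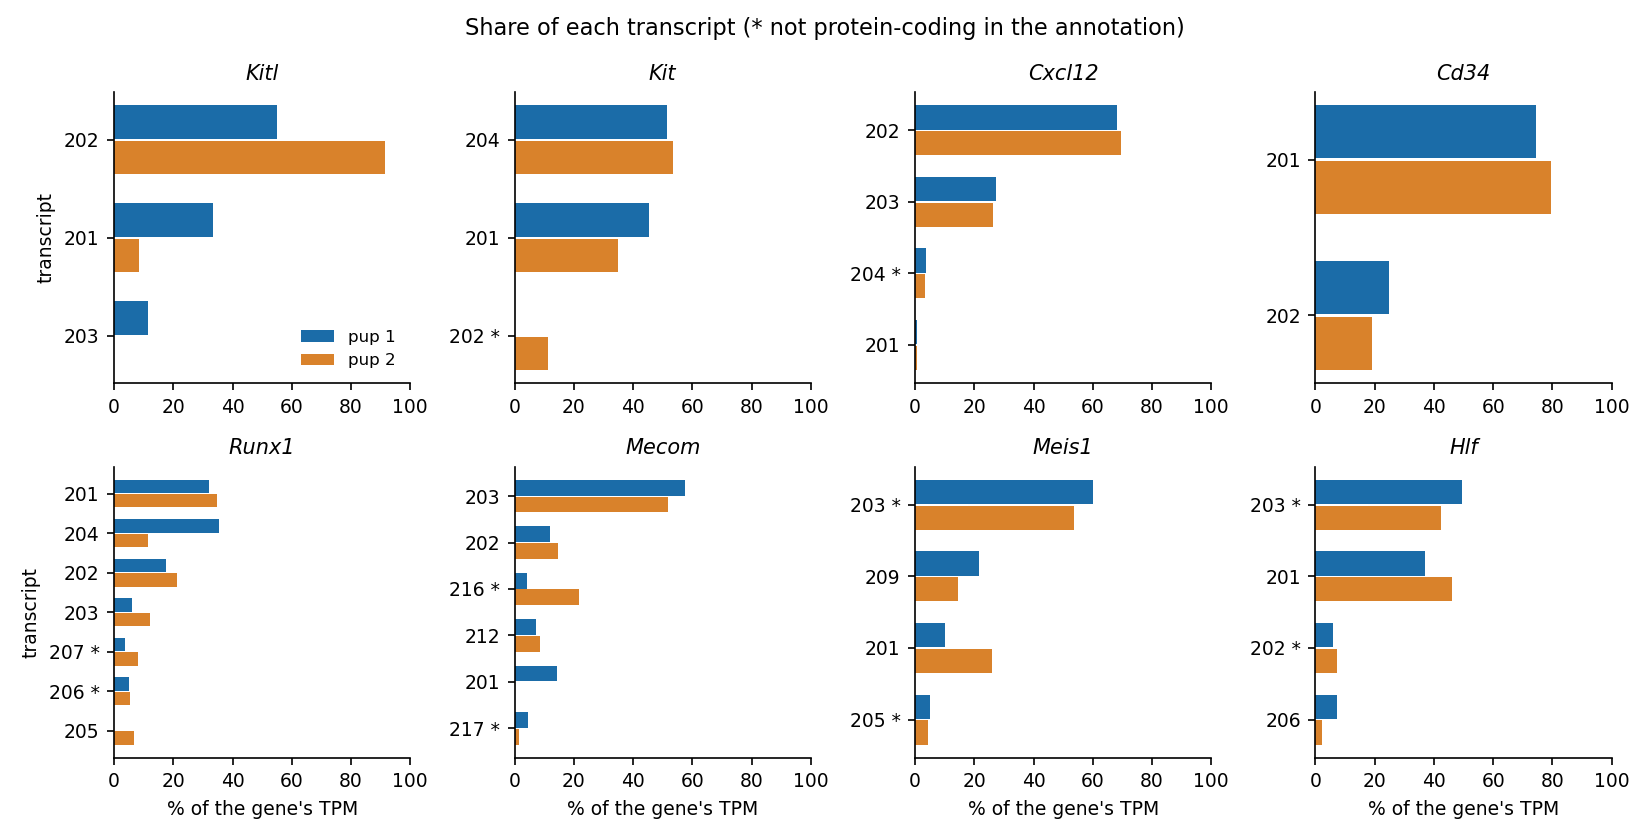
Percent of the gene's TPM (x axis, 0 to 100%) assigned to each transcript of 8 of the genes, with a bar for pup 1 and a bar for pup 2 and an asterisk for transcripts that are not protein-coding in the annotation; transcripts under 3% in both livers are left out except for Cxcl12. The bars of Kitl-202 reach 55.1% in pup 1 and 91.6% in pup 2, while those of Cxcl12 are nearly equal in both livers.

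Runx1, Mecom and Thpo have a distal and a proximal start in RefSeq, and transcripts were assigned to the nearest start within 2000 nt. The distal Runx1 start gives RUNX1c, the form tied to definitive blood stem cells, and the proximal start gives forms with another N-terminus. Both promoter windows of Runx1 are printed here because both starts were read in these livers. They run from 250 bases before to 50 after the start, from RefSeq on GRCm38.p6, minus strand. The distal one is chr16:92826025-92826324 and the proximal one chr16:92697280-92697579. Capitals mark matches to 2 of 7 motifs searched on both strands, the E-box CACGTG and ACCACA, the reverse complement of the RUNX core TGTGGT.
Runx1 distal: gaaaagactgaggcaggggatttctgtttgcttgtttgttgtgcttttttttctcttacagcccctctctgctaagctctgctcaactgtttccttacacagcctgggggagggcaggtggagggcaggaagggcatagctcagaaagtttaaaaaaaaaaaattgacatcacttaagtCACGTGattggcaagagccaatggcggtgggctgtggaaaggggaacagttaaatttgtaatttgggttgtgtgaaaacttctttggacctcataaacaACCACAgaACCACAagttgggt
Runx1 proximal: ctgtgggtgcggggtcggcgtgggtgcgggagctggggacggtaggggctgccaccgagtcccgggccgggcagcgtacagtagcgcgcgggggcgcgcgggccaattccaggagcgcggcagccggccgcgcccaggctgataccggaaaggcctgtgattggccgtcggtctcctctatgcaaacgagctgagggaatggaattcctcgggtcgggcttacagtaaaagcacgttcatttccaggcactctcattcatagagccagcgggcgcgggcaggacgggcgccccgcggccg

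The distal window has a GC content of 45.0% and an observed to expected CpG ratio of 0.137, where the medians over 31360 RefSeq windows were 52.7% and 0.383. The proximal window has 69.0% and 1.01, so the starts lie on either side of the typical promoter. Of all windows, 16.8% hold the RUNX core and 7.10% the E-box. The distal window holds the RUNX core at 28 and 36 bases after the start and the E-box 71 bases before it. The other motifs searched were the GATA motif AGATAA, the MEIS core TGACAG, the TATA box TATAAA, the ETS core CCGGAAG and the HNF1 site GTTAAT. None of the 7 is in the proximal window. Over the 13 windows of the 10 genes, the RUNX core was in 2, the MEIS core in 3 where 19.2% of all windows hold it, and the GATA motif in 0 where 11.2% do. A match is a description of letters and not a bound site.

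Distal Runx1 transcripts held 71.2% of Runx1 TPM in pup 1 and 54.4% in pup 2, at 2.82 and 1.51 TPM, and proximal ones held 28.8% and 45.7%, at 1.13 and 1.27 TPM. The lower Runx1 level of pup 2 was thus on the distal side. Most of that gap came from Runx1-204, a distal transcript of 336 nt that took 35.3% of TPM from 11.8 counts in pup 1 and 11.5% from 2.73 counts in pup 2. By counts, distal transcripts held 64.4% and 60.7%. Without transcripts under 1000 nt they held 55.7% and 52.4% of TPM. Both starts were therefore read in both livers, and distal transcripts together held the larger share on each of these scales. That sum includes Runx1-204 and the non-coding Runx1-207, so it is not the share of RUNX1c. Without transcripts under 1000 nt, the distal coding transcript Runx1-201 held 49.8% and 42.7% of TPM, and proximal transcripts 44.3% and 47.6%. By counts, Runx1-201 held 58.8% and 54.7%, and proximal transcripts 35.6% and 39.3%.

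Mecom was too low for a firm split. Of its counts, 9.82 in pup 1 and 11.3 in pup 2 were assigned to distal transcripts, which can encode the PR domain of MDS1-EVI1, and 22.2 and 39.1 to proximal ones. The larger part lay on transcripts that start over 2000 nt from either RefSeq start, mainly Mecom-203 with 60.0 and 51.7 counts. Thpo was assigned to its proximal start, which held 100% of TPM in pup 1 and 97.7% in pup 2. The starts are those of M21, where both Thpo transcripts differ in length from the deposited ones. The proximal one has 1558 nt in M21 and 1587 nt as deposited, and the distal one 2416 and 1712 nt. The distal Thpo transcript had 0 and 9.01 counts, and its first exon lies within Chrd, a gene of the opposite strand with 0.30 and 0.39 TPM.

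Set against their receptors, Cxcl12 and Kitl differed. The log2 ratio of Cxcl12 to Cxcr4, its signalling receptor, was 4.50 in pup 1 and 4.97 in pup 2, or 26.6-fold at the mean, with Cxcr4 at 4.81 and 3.75 TPM. A ratio counted as beyond the spread if its sign was the same in both livers and its mean exceeded 3 SD, and Cxcl12 over Cxcr4 did so. Cxcl12 over its scavenger receptor Ackr3, which was at 2.19 and 1.97 TPM, was 54.5-fold and also beyond the spread. Kitl was below Kit in both livers, with log2 ratios of -0.42 and -1.16, but the mean of -0.79 ± 0.53 (SD, n = 2) was within 3 SD of 0. The ligand of FLT3 was not analysed here.

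Among the cytokines, Cxcl12 was 40.7-fold above Kitl, beyond the spread, while Thpo over Kitl, at log2 ratios of 0.92 and 1.78, was not. Thpo lay far above Epo, the related hormone of red cell formation, which had 5 counts in pup 1 and 3 in pup 2. No fold is given, since the log2 ratio of 5.48 on TPM became 2.79 with a pseudocount of 1, 4.61 by posterior mean and 6.59 by counts. The Epo receptor Epor was at 33.6 and 32.5 TPM. Csf1, the macrophage cytokine, was at 6.38 and 5.72 TPM and its receptor Csf1r at 32.2 and 29.4 TPM. Kit was 3.90-fold above Flt3 and 6.39-fold below Csf1r, all 3 being receptor kinases of 1 family, and both ratios were beyond the spread. Their sizes depended on the estimate. The log2 ratio of Kit over Flt3 was 1.96 on TPM, 2.38 by counts and 1.38 with a pseudocount of 1. For Kit over Csf1r these were -2.68, -2.43 and -2.45. Kit over Cd34, at log2 ratios of -0.12 and -0.34, was not. Cd34 was 1.42-fold below Pecam1, an endothelial adhesion protein, at log2 ratios of -0.52 and -0.50, beyond the spread. The size of this ratio also depended on the estimate, with a mean log2 ratio of -0.51 on TPM and -0.88 by counts.

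The transcription factors were set against members of their own families. Runx1 was 9.48-fold above Runx2 and 9.01-fold above Runx3, and 2.81-fold below Cbfb, the subunit with which RUNX proteins bind DNA. Meis1 was 3.05-fold above Meis2. By the authors' posterior mean these folds were smaller, with mean log2 ratios of 2.08 for Runx1 over Runx2 (3.24 on TPM), 1.97 over Runx3 (3.17 on TPM) and 0.89 for Meis1 over Meis2 (1.61 on TPM). On TPM all of these were beyond the spread. Hlf lay below Tef, at log2 ratios of -0.56 and -0.93, and above Dbp, at 1.19 and 0.55, but neither mean was over 3 SD from 0. Mecom and its relative Prdm16 changed places, with a log2 ratio of -1.30 in pup 1 and 0.26 in pup 2, Prdm16 being at 1.92 and 0.62 TPM. Without transcripts under 1000 nt the mean ratio turned from -0.52 to 1.27, so the order of Mecom and Prdm16 cannot be given. Of the 17 pairs compared, 11 were beyond the spread.

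**Figure D4:**
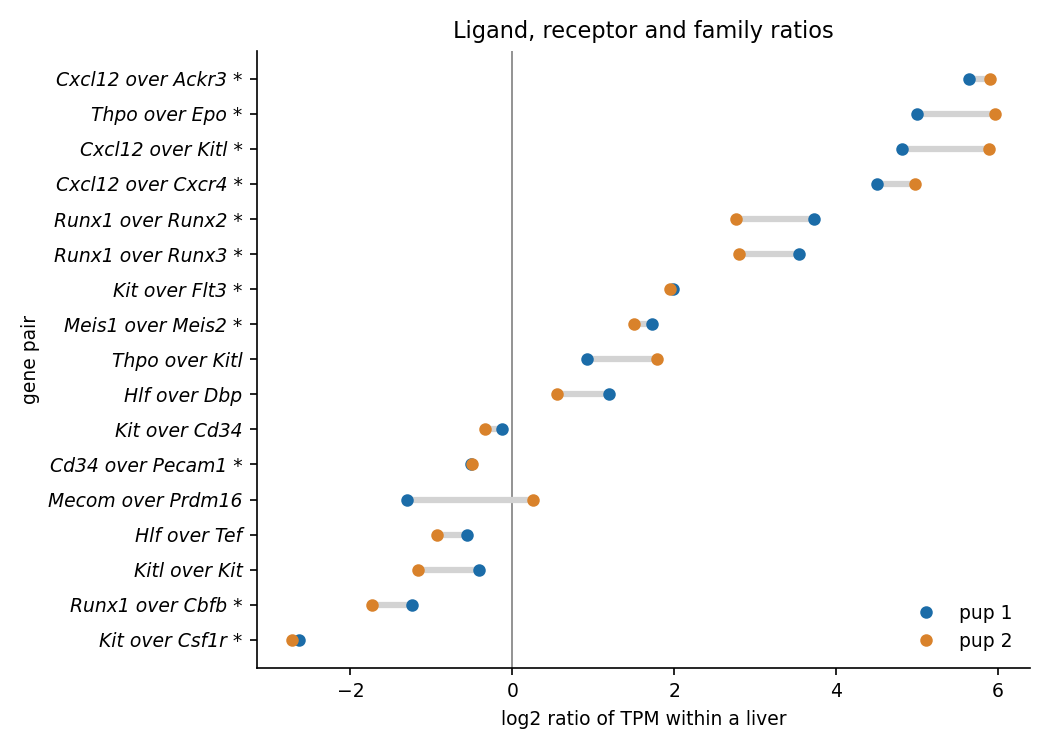
Log2 ratio of TPM within each of 17 gene pairs in the liver of pup 1 and of pup 2, with a line at 0 where both genes are level and an asterisk where the ratio was beyond the spread. Cxcl12 lies over 4 log2 units above Cxcr4 in both livers, Kit lies over 2 log2 units below Csf1r in both, and the pair of Mecom and Prdm16 has the widest gap between livers.

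The wider pathway was read from lists of genes of known role, and none of the genes in the pathway lists was at least 2-fold apart between the livers by the same rule, which asks for log2(TPM + 1), a mean of 1 TPM and intervals that part. On plain TPM, Prdm16 and some genes under 1 TPM, such as Wnt5a at 0.13 and 0.31 TPM, differed by more. Of 16 other niche factors 12 were detected, with a median of 2.75 TPM over the list. They ranged from the growth factor Igf2 at 1387 ± 89.0 TPM (SD, n = 2) and fibronectin (Fn1) at 362 ± 44.2 TPM down to Il6 at 0.255 TPM and Wnt5a at 0.22 TPM. Cxcl12 would thus stand below Igf2 and Fn1, and Thpo and Kitl within the range of the list. Of 15 other cytokine receptors all 15 were detected, with a median of 4.80 TPM, close to the level of Kit. Integrin beta 1 (Itgb1) at 55.0 ± 2.89 TPM and the interleukin-6 receptor chains Il6ra at 9.65 TPM and Il6st at 8.09 TPM were the highest. Igf1r at 1.85 TPM and Notch1 at 1.78 TPM were the lowest, both above Flt3. Of these receptors 14 were lower and 1 higher in pup 2, with a median log2 ratio of -0.20 beside -0.05 for all genes.

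Genes that act downstream of these receptors were nearly all present, 19 of 20, with a median of 9.72 TPM. Socs2, an inhibitor of cytokine signalling, was the highest at 66.0 ± 11.3 TPM (SD, n = 2), then Stat3 at 42.7 ± 5.83 TPM and the phosphatase Ptpn6 at 37.4 ± 3.85 TPM. The ubiquitin ligase Cbl at 2.62 TPM and the adaptor Gab2 at 1.15 TPM were the lowest. Their levels lay mostly above those of the receptors Kit and Flt3, but such signalling genes serve many cell types.

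Of 25 other transcription factors of stem and progenitor cells, 18 were detected, with a median of 3.37 TPM. Those shared with abundant lineages led: Lmo2 at 53.5 ± 2.66 TPM (SD, n = 2), Hhex at 48.0 ± 1.48 TPM and Gfi1b at 44.2 ± 2.26 TPM. The Hox genes Hoxa9 at 0.16 TPM and Hoxa10, with 0 counts in pup 1 and 1 in pup 2, were the lowest. Hlf, Meis1 and Runx1 lay at or above the median of this list and Mecom below it. Of 19 surface and marker genes 17 were detected, with a median of 6.71 TPM. The highest were Cd47 at 239 ± 2.88 TPM, the platelet integrin chain Itga2b at 38.1 ± 2.48 TPM and the cell cycle inhibitor Cdkn1c at 27.8 ± 6.63 TPM, and the lowest were Procr at 1.20 TPM and Thy1 at 0.245 TPM. Slamf1, chosen for mention after its value was seen because it marks long-term stem cells in the mouse, was at 2.15 ± 0.0141 TPM.

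**Figure D5:**
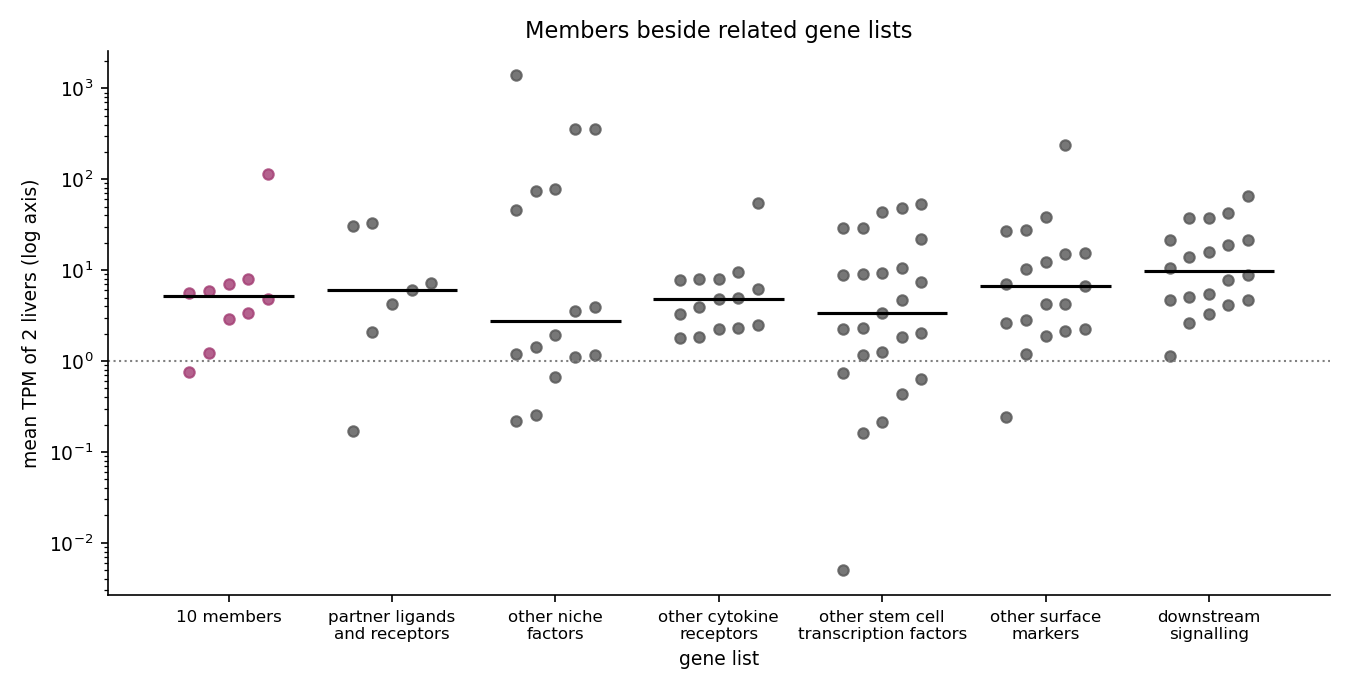
Mean TPM over both livers (log axis) of each gene, in columns for the 10 genes and 6 related lists, with a line at the median of each column and a dotted line at 1 TPM. The highest point of the column of the 10 genes is Cxcl12 at 113 TPM, and their median of 5.23 TPM lies among those of the other lists, 2.75 to 9.72 TPM.

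The cell types of the tissue were checked with marker lists. Hepatocyte markers summed to 74538 TPM in pup 1 and 68890 TPM in pup 2, with all 8 detected and albumin (Alb) at 14198 ± 731 TPM (SD, n = 2). Erythroid markers summed to 36537 and 39069 TPM, with 9 of 9 detected, and megakaryocyte markers, led by Pf4 at 576 TPM, to 966 and 962 TPM. Granulocyte and monocyte progenitor markers summed to 793 and 737 TPM, with Mpo at 231 ± 16.2 TPM. Of the lymphoid progenitor markers 7 of 11 were detected, at 128 and 132 TPM in sum. Markers of each of these blood lineages were thus measured beside the stem cell genes.

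Stellate and mesenchymal markers, from cells known to make CXCL12 and KIT ligand, summed to 278 TPM in pup 1 and 261 TPM in pup 2, with 12 of 12 detected. One of them, the muscle filament gene Des, was at 3.51 and 12.3 TPM and was the 1 marker at least 2-fold apart by that rule. Bile duct and mesothelium markers summed to 130 and 97.8 TPM, and all 8 with a mean of 1 TPM or more were lower in pup 2. The part of these cells in the values of Kitl and Cxcl12 was not tested.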

How the data were processed

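RNA of 2 newborn livers was sequenced, 10 ng of RNA longer than 200 nt per library with ERCC spike-ins, per the labels' protocols, which call it total RNA-seq but cite a low-input kit primed with oligo-dT. The reads were assigned on mm10 with annotation M4, per the deposited notes. The aligner, counter and strand setting were not given in the sources used here. The authors deposited expected counts, estimated reads per gene that need not be whole. TPM and FPKM were deposited by the authors as length-scaled values, and FPKM was used as an alternative. IsoPct, the percent of a gene's TPM held by a transcript, was deposited by the authors. The bounds of the authors' credible intervals, whose level is not given, were treated as a score.

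Symbols and coordinates came from GENCODE M21 (42462 of 43346 genes matched), and promoters from RefSeq. Of the 62 transcripts of the 10 genes, 57 had the same length in M21 as in the deposited values. A count of 0 allows 3 counts, 0.0712 CPM in pup 1 and 0.0724 in pup 2. Such limits reflect counting alone, because reads are not separate molecules. The 10 genes, lists and pairs were chosen with earlier results of these data known. Genes named from other lists are the 3 highest and 2 lowest by mean TPM, genes of the pairs, any list gene over 2-fold apart, and the leading genes of marker lists; 3 listed symbols had no match, and some genes named by this rule are not reported here. The basophil, mast cell and melanocyte markers named beside Kit, Lyve1 and Slamf1 were chosen after their values were seen. Python 3.11.15, pandas 2.3.3, numpy 2.4.6, scipy 1.17.1 and matplotlib 3.10.9 were used, with edgeR 4.0.16 in R 4.3.3 for TMM factors on expected counts rounded to whole numbers. The comparison of livers was tried on simulated counts that held counting error only. The changes put into them were larger than any between the livers for the 10 genes. That trial does not cover variation between animals or the assignment of reads to transcripts. Alternatives were other thresholds, pseudocounts, scalings and estimates, and leaving out each liver.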

Additional observations from a re-analysis of the deposited data

How the results depend on the processing

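No paired analysis was possible because there is 1 group. Between 7 and 10 of the 10 genes were detected under the alternatives tried: 7 at a threshold of 2 TPM, 10 at 0.5 TPM, by posterior mean and by CPM, and 9 by FPKM and without either liver. None of the 9 genes at a mean of 1 TPM or more was 2-fold apart under any pseudocount, scaling or filter; lowering the fold to 1.5 gave 1. Over all genes that comparison gave 72 higher and 8 lower in pup 2, and 64 and 16 with spike-in scaling; it called 112 genes with a pseudocount of 0.1, 76 with TMM, 100 with no filter on low values, 159 by size only and 187 at 1.5-fold. By expected counts, which weight by length, the log2 ratio of Cxcl12 over Cxcr4 was 5.12 and that of Cxcl12 over Kitl 4.38, and Thpo over Kitl at -0.17 and Kit over Cd34 at 0.78 changed sign, neither being beyond the spread on TPM. The same transcript led in 8 genes by IsoPct and posterior mean, in 9 without transcripts under 1000 nt and in 10 by counts. The alternatives on CPM and without short transcripts were chosen after seeing the data. The remaining values for single genes, transcripts and pairs were labelled the same in 124 cases and moved in 55. For pairs and transcript shares, moved meant a change of more than 1 SD over the 2 livers. Leaving out 1 liver can never pass that bound, so those settings are no check. For ratios between the livers, moved meant a change of sign or of more than 0.36, the SD over genes of 1 to 10 TPM. The ratio of the FLT3 ligand to Flt3 was not run. Depth limits Mecom, with 96 and 103 counts, and the shares of transcripts with under 20 counts.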
